A study of Caenorhabditis elegans with 10 samples.

Results

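Of the genes for transmitter release and for cation channels of nerve and muscle, 24 are in the authors' deposited table of RNAs enriched with the light chain DLC-1 in *Caenorhabditis elegans*. The members were chosen by name: 34 named genes for vesicle release, calcium, sodium leak, potassium and TRP channels, and every gene of the families *twk*, *kvs* and *kqt*. With 52 family genes in the reference annotation, the choice covers 86 genes, and the other 62 are not listed under these names. The table holds 2732 genes in all.

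RNA was sequenced from 5 immunoprecipitates made with an antibody against FLAG and from 5 inputs. All 10 samples were whole-worm extracts of synchronized young adults of the genotype 3xFLAG::DLC-1, so the inputs carry the tag as well, and worms without the tag were not analysed here. The labels do not say what drives the tagged protein, in which cells it is made, or whether the replicate numbers stand for separate cultures, so the p-values may measure technical spread alone. Inputs were primed with oligo-dT and immunoprecipitated RNA was made into libraries without enrichment, so the pull-down and the library preparation cannot be told apart in any value below.

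Each gene has 1 log2 fold change of immunoprecipitate over input in the table, with a standard error (SE), a p-value and a mean normalized count over the libraries. Values per library are absent from it, so depth is unknown and the spread is known only through the SE. The authors' deposited table keeps genes above 2-fold (a log2 fold change of 1) with an adjusted p under 0.01. For a gene outside the table it is not known whether it was depleted, equal in both, weakly enriched, enriched with too large an error to pass, or without reads. In whole-worm RNA, fewer cells of a type and less RNA per cell cannot be told apart either.

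Chemical transmission starts when calcium enters a nerve terminal through voltage-gated channels and vesicles that SNARE proteins have docked fuse with the membrane. Priming factors such as UNC-13 make vesicles ready for fusion. Potassium channels end the depolarization, leak channels of the NALCN type set the resting potential, and in muscle the ryanodine receptor releases stored calcium for contraction. LC8 light chains such as DLC-1 are subunits of the dynein motor and bind many other proteins.

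Genes for calcium channels and calcium stores had the highest test statistics of the set (*unc-68*, *itr-1*, *egl-19* and *cca-1*), and the 3 SNARE genes *unc-64*, *ric-4* and *snb-1* were not listed. Listed were 24 of 86 genes, or 27.9%, where 10.6% of the 19983 protein-coding genes of the reference and 13.4% of the 20328 genes the authors tested are listed. Most of these genes are long, and listing follows gene span, as described below. In the authors' deposited table the log2 fold changes of the 24 genes ran from 1.17 to 3.92 with a median of 2.10, beside a median of 1.81 for listed protein-coding genes and 2.13 for all listed genes. Since the table holds only genes above 2-fold, these medians describe the listed genes and not the 86.

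To separate strong from weak enrichment, each fold change was tested against 2-fold in place of no change (one-sided Wald test with the authors' SE, Benjamini-Hochberg adjusted over the 20328 tested genes, threshold 0.01). Of the 24 genes, 13 passed, or 54.2%, beside 46.9% of listed protein-coding genes and 6.64% of all tested genes. The share of the 24 is not far from that of listed protein-coding genes, and the members were chosen with the table known, so nothing particular to them is read from it. At or above 4-fold in the authors' deposited table were 14 of the 24 genes, or 58.3%, beside 42.3% of listed protein-coding genes. These shares are not at like counts. Means under 100 normalized counts were found for 14 of the 24 and for 514 of 2116 listed protein-coding genes, and a low mean can enter only with a high fold.

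**Figure D1:**
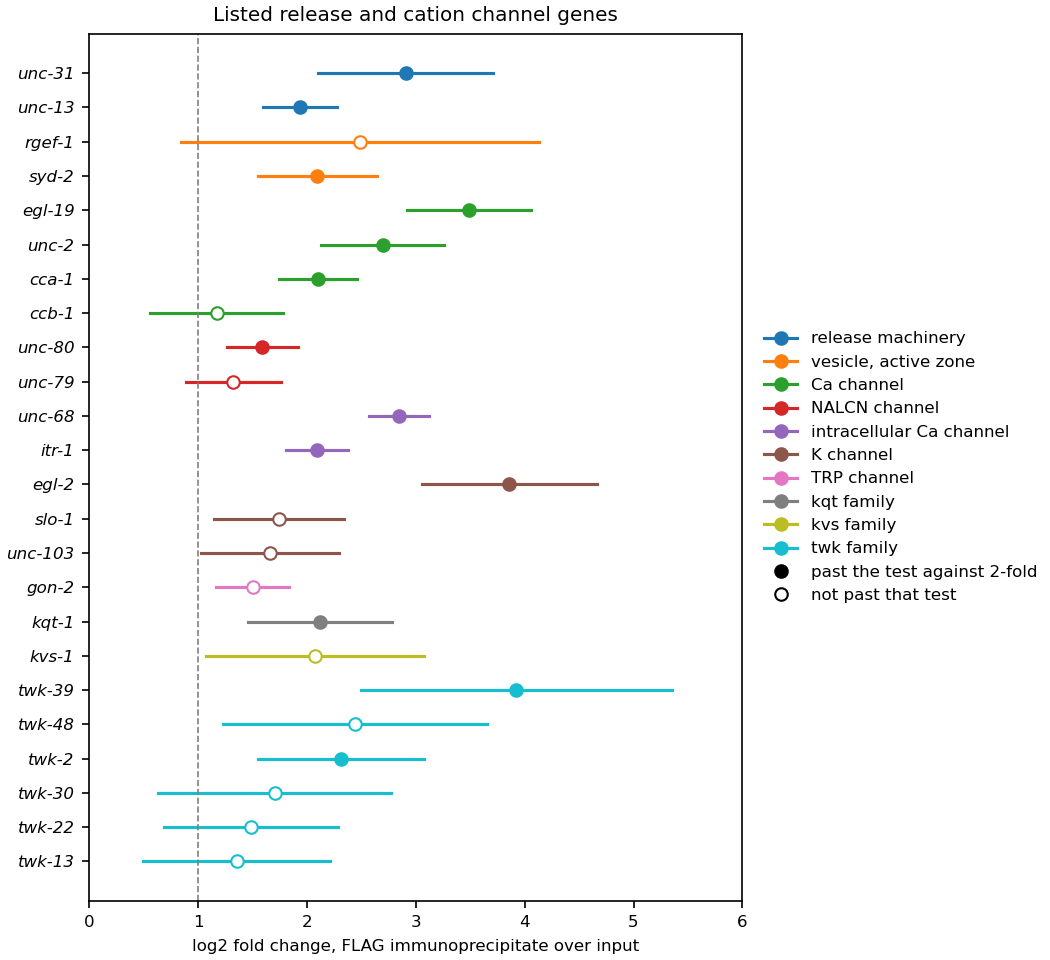
Log2 fold change of FLAG immunoprecipitate over input (horizontal axis) for the 24 listed genes, in order of role, with lines for the 95% interval (normal, from the SE). Filled points passed the test against 2-fold, open points did not, and the dashed line marks 2-fold. The intervals of *unc-68*, *itr-1* and *cca-1* are narrow, and those of *rgef-1* and *twk-39* are the widest.

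Of the 6 genes of the core release machinery, 2 were listed, and both act in making vesicles ready for release. *unc-13*, the Munc13 priming factor, had a mean of 198 normalized counts and a log2 fold change of 1.94 ± 0.17 (SE) in the authors' deposited table, which is 3.83-fold with a 95% interval of 3.03 to 4.84. It passed the test against 2-fold (one-sided Wald test, Benjamini-Hochberg adjusted p = 7.67e-07). *unc-31*, the CAPS homologue needed for dense core vesicle release, stood at 2.91 ± 0.41 (log2 fold change ± SE) on a mean of 50.2 in the authors' deposited table, or 7.50-fold. It passed as well (one-sided Wald test against 2-fold, Benjamini-Hochberg adjusted p = 4.12e-05). The intervals of the log2 fold change, 2.10 to 3.71 for *unc-31* and 1.60 to 2.28 for *unc-13*, overlap.

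The value of *unc-31* may include reads of another gene. Within its span on chromosome IV (12773867 to 12788354, WBcel235) lies the small nuclear RNA gene ZK897.4 (12787138 to 12787259), which stood at a log2 fold change of 10.17 ± 0.96 (SE) on a mean of 37.2 in the authors' deposited table. The part of these reads in the *unc-31* value was not tested. Whether counting used strand is not stated in the labels or the file.

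The 4 other core genes are not listed: *unc-18* (Munc18), *unc-64* (syntaxin), *ric-4* (SNAP-25) and *snb-1* (synaptobrevin). These encode the SNAREs and the syntaxin partner that drive fusion itself. Their spans have a median of 4886 bp, beside a median of 22910 bp for *unc-13* and *unc-31*. The gene *snb-1*, at 940 bp, is the shortest of the 86.

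Of the 6 vesicle and active zone genes, 2 were listed. *syd-2*, the liprin-alpha that organizes active zones, stood at 2.10 ± 0.28 (log2 fold change ± SE) on a mean of 271 in the authors' deposited table, and passed the test against 2-fold (one-sided Wald test, Benjamini-Hochberg adjusted p = 0.000835). *rgef-1*, a Ras guanine nucleotide exchange factor expressed throughout the nervous system, had a higher estimate but only 10.5 normalized counts in the authors' deposited table. Its log2 fold change was 2.49 ± 0.84 (SE) there, and it did not pass (one-sided Wald test against 2-fold, Benjamini-Hochberg adjusted p = 0.372). Its span overlaps by 6 bp that of *ehbp-1*, which is listed on a mean of 1195 in the authors' deposited table, and the part of that neighbour was not tested. Not listed were *snt-1* (synaptotagmin), *rab-3* (the vesicle GTPase), *unc-10* (RIM) and *cla-1* (clarinet, a large active zone protein). At 39308 bp *cla-1* is among the longest of the 86 genes, so a long span alone did not place a gene in the table.

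Voltage-gated calcium channel genes were listed for all 3 pore-forming subunits and the beta subunit. *egl-19*, the L-type channel of muscle and neurons, stood at 3.49 ± 0.29 (log2 fold change ± SE) on a mean of 312 in the authors' deposited table, or 11.2-fold with a 95% interval of 7.55 to 16.7. It lies on chromosome IV, 7405582 to 7418740 (WBcel235). *unc-2*, the presynaptic channel that triggers release, stood at 2.70 ± 0.29 on a mean of 208 and *cca-1*, the T-type channel, at 2.10 ± 0.18 on a mean of 118.9 (log2 fold ± SE from the authors' deposited table). All 3 passed the test against 2-fold (one-sided Wald test, Benjamini-Hochberg adjusted p = 5.05e-16 for *egl-19*, 8.36e-08 for *unc-2* and 2.92e-08 for *cca-1*).

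The pore genes and their partner spread over a wide range of values. The 95% interval of *egl-19* (2.92 to 4.06 in log2) lies above that of *cca-1* (1.75 to 2.46), while the interval of *unc-2* (2.13 to 3.26) overlaps both. *ccb-1*, which encodes the beta subunit that pore subunits need to reach the membrane, had the lowest value of the 24 at 1.17 ± 0.31 (log2 fold change ± SE) on a mean of 101 in the authors' deposited table. Its interval, 0.56 to 1.78, lies below those of *egl-19* and *unc-2*. It did not pass the test against 2-fold (one-sided Wald test, Benjamini-Hochberg adjusted p = 1). The alpha2delta genes *unc-36* and *tag-180* are not listed. The pore genes span 13159 bp (*egl-19*), 52607 bp (*unc-2*) and 28277 bp (*cca-1*), against 5432 bp for *ccb-1*, 7375 bp for *unc-36* and 6383 bp for *tag-180*.

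Both genes for release of stored calcium were listed, with the highest means of the 24. *unc-68*, the ryanodine receptor of muscle, had 1397 normalized counts and a log2 fold change of 2.85 ± 0.14 (SE) in the authors' deposited table, or 7.19-fold with a 95% interval of 5.95 to 8.68. By its test statistic it ranked 99 of 2732, the highest of the 24 (chromosome V, 6901681 to 6929038, WBcel235). *itr-1*, the inositol trisphosphate receptor, which acts in the intestine, the gonadal sheath and other tissues, stood at 2.09 ± 0.15 (log2 fold change ± SE) on a mean of 749 in the authors' deposited table. Both passed the test against 2-fold (one-sided Wald test, Benjamini-Hochberg adjusted p = 2.83e-38 for *unc-68* and 2.39e-12 for *itr-1*). The 95% intervals of the log2 fold change, 2.57 to 3.12 for *unc-68* and 1.81 to 2.38 for *itr-1*, do not overlap.

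Genes of the NALCN sodium leak channel were listed for the auxiliary subunits. *unc-80* stood at 1.59 ± 0.17 on a mean of 198 and *unc-79* at 1.32 ± 0.22 on a mean of 75.6 (log2 fold ± SE from the authors' deposited table). These large proteins are needed for the channel's localization and function. *unc-80* passed the test against 2-fold and *unc-79* did not (one-sided Wald test, Benjamini-Hochberg adjusted p = 0.00340 for *unc-80* and 0.681 for *unc-79*). Their log2 intervals, 1.26 to 1.92 for *unc-80* and 0.89 to 1.76 for *unc-79*, overlap. The pore gene *nca-2* is not listed. *nca-1* is not listed under that name, but *unc-77*, by general knowledge of the worm another name of the same gene, stood at 1.03 ± 0.26 (log2 fold change ± SE) on a mean of 50.0 in the authors' deposited table. It would be the lowest of the set and is not counted among the 24. No value of an unlisted gene is known, so the other side of the table's limit cannot be shown.

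**Figure D2:**
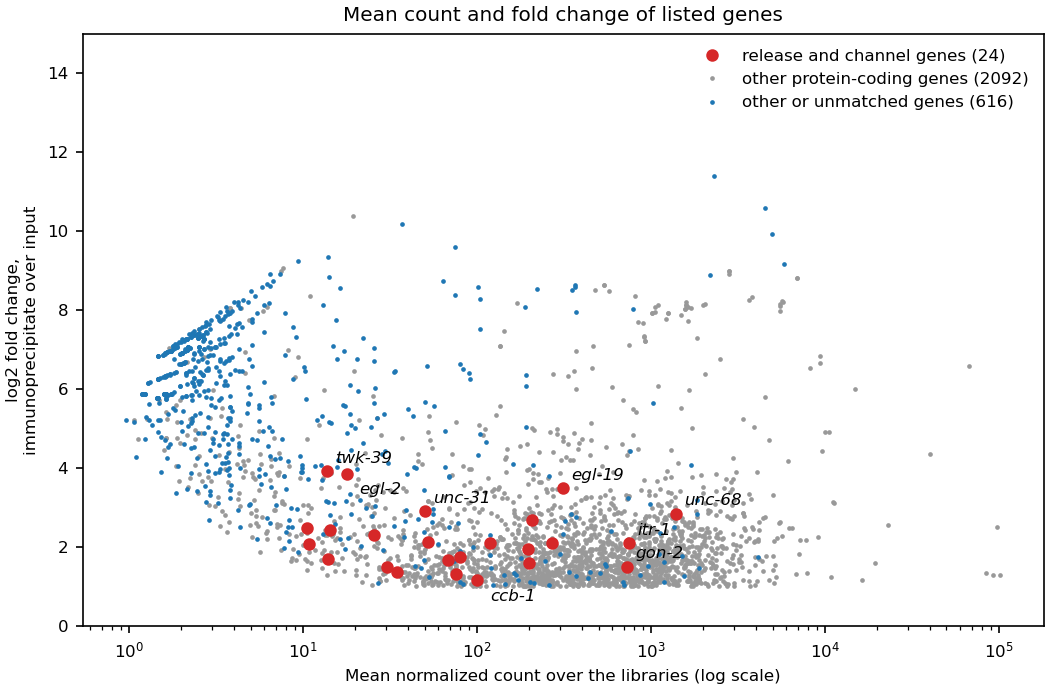
Mean normalized count (horizontal, log scale) and log2 fold change of immunoprecipitate over input (vertical) of all 2732 listed genes, with the 24 release and channel genes in red. None of the 24 lies in the cloud of low means with high folds, and *egl-19* and *unc-68* sit in the upper part of the genes of like mean.

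Potassium channel genes had lower means than the calcium channels: all 11 listed genes were below 100 normalized counts in the authors' deposited table, with a median of 25.7. *egl-2*, the EAG channel, stood at 3.86 ± 0.41 (log2 fold change ± SE) on a mean of 17.9 in the authors' deposited table, or 14.5-fold with a 95% interval of 8.31 to 25.3, and passed the test against 2-fold (one-sided Wald test, Benjamini-Hochberg adjusted p = 7.63e-11). Its relative *unc-103*, the ERG channel that holds back excitability of muscle and neurons, stood at 1.66 ± 0.32 on a mean of 67.9, and *slo-1*, the calcium-activated BK channel that limits release, at 1.74 ± 0.31 on a mean of 80.1 (log2 fold ± SE from the authors' deposited table). Neither passed (one-sided Wald test against 2-fold, Benjamini-Hochberg adjusted p = 0.216 for *unc-103* and 0.0860 for *slo-1*). The interval of *egl-2* (3.06 to 4.66 in log2) lies above those of *unc-103* (1.03 to 2.297) and *slo-1* (1.14 to 2.34). Not listed were *slo-2*, *egl-36* (Shaw), *shk-1* (Shaker) and *shl-1* (Shal).

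The smaller voltage-gated families gave 1 gene each. *kqt-1*, a KCNQ-type channel, stood at 2.12 ± 0.34 on a mean of 52.0 and *kvs-1* at 2.08 ± 0.51 on a mean of 10.8 (log2 fold ± SE from the authors' deposited table). Their estimates are close, and only the better measured *kqt-1* passed the test against 2-fold (one-sided Wald test, Benjamini-Hochberg adjusted p = 0.00690, against 0.184 for *kvs-1*). The span of *kqt-1* shares 3904 of its 8984 bp with the protein-coding gene *clec-266*, which is not listed, and the part of that neighbour was not tested. The other 2 *kqt* genes and the other 4 *kvs* genes are not listed.

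Of 44 *twk* genes, which encode potassium channels of the TWIK type that carry background current, 6 were listed, or 13.6%, beside 10.6% of all protein-coding genes. In the top 20% of spans it was 4 of 27 *twk* genes, or 14.8%, against 34.5% of reference genes, a difference that was not tested. *twk-39* stood at 3.92 ± 0.73 on a mean of 13.8, the highest fold of the 24, and *twk-2* at 2.31 ± 0.39 on a mean of 25.7 (log2 fold ± SE from the authors' deposited table). Both passed the test against 2-fold (one-sided Wald test, Benjamini-Hochberg adjusted p = 0.000617 for *twk-39* and 0.00582 for *twk-2*). The 95% interval of *twk-39* runs from 5.64-fold to 40.9-fold, so its place at the top is not settled. The values of *twk-48* (2.44 ± 0.62), *twk-30* (1.71 ± 0.55), *twk-22* (1.49 ± 0.41) and *twk-13* (1.36 ± 0.44) did not pass that test (log2 fold ± SE from the authors' deposited table). Their means in the authors' deposited table lay between 13.96 and 34.5 normalized counts. The 6 listed *twk* genes have a median span of 8016 bp and the 38 others one of 4541 bp. *twk-48* and *twk-30* are the exceptions, with spans of 2599 and 2683 bp. *twk-48* also overlaps the listed gene *dhhc-4* by 111 bp. The whole 2683 bp of *twk-30* lie within the span of the protein-coding gene *phip-1*, which is not listed. The part of either neighbour in these values was not tested. The family's genes resemble each other in sequence, and how reads that map to several places were treated is not given in the sources used here.

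Among the 3 TRP channel genes, *gon-2* was listed, a TRPM channel known for divisions of gonad precursors and for magnesium uptake in the intestine. It had 726 normalized counts and a log2 fold change of 1.502 ± 0.17 (SE) in the authors' deposited table, or 2.83-fold with a 95% interval of 2.24 to 3.58. It missed the test against 2-fold (one-sided Wald test, Benjamini-Hochberg adjusted p = 0.0250). With adjustment over the listed genes alone the same test gave it an adjusted p of 0.00336, under the threshold. That adjustment is more lenient, since the listed genes were already selected above 2-fold, and 1744 listed genes pass under it against 1350. The other TRPM gene *gtl-1* and *trp-4*, a TRPN mechanosensory channel, are not listed.

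What the listed genes share most clearly, and what their names did not decide, is a long gene. The reference gives the span of a gene with introns and no transcript length. The 24 listed genes had a median span of 15220 bp, the 62 others of the set 5895 bp, all listed protein-coding genes 5615 bp and all reference protein-coding genes 2005 bp. In the top 10% of spans (from 6665 bp) lay 19 of the 24. Within it 19 of 44 genes of the set were listed, or 43.2%, against 45.3% of the reference genes. In the top 20% (from 4251 bp) it was 22 of 65, or 33.8%, against 34.5%. Among shorter genes it was 2 of 21, or 9.52%, against 4.62%. In these counts *nca-1*, at 26552 bp, is unlisted in the set, while the reference shares count it, as *unc-77*, among the listed genes. Over the top 10% and the top 20% of spans the set was thus listed at about the share of other genes. In the 3 bins below the longest the shares differed both ways. They were 2 of 6 against 7.25% from 2458 bp, 0 of 10 against 13.8% from 3139 bp and 3 of 21 against 23.6% from 4251 bp. The part of span in the excess over 10.6% was not tested, and nothing particular to release and channel genes is read from that excess.

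**Figure D3:**
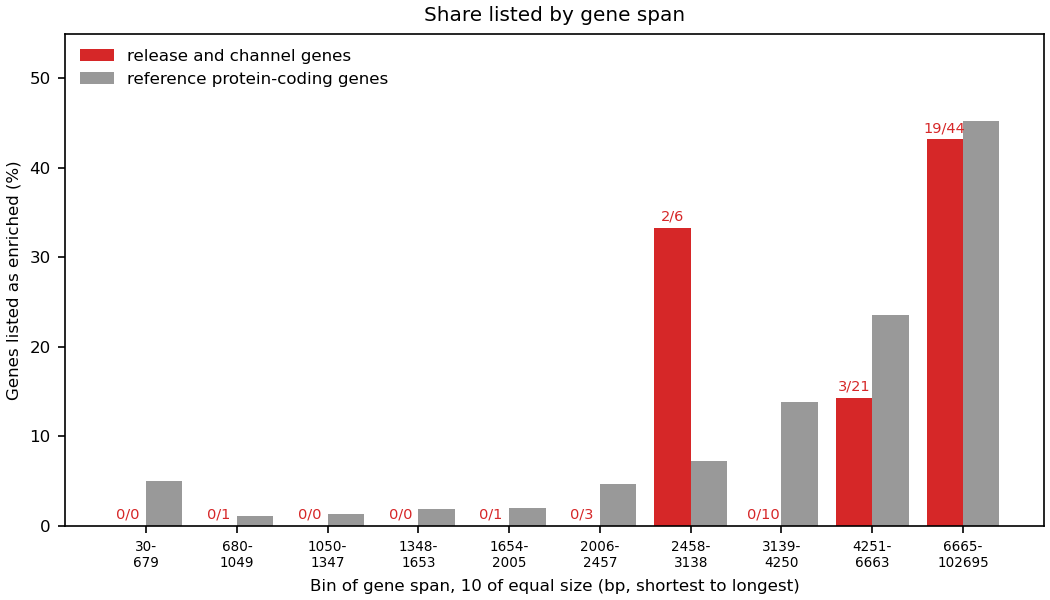
Share of genes listed (vertical, percent) in each of 10 equal bins of gene span (horizontal, bp), for the release and channel genes (red, with listed over all) and for the reference protein-coding genes (grey). The grey bars rise from the second bin on, and the red bars are uneven, with 2 of 6 genes from 2458 bp, 0 of 10 from 3139 bp and 3 of 21 from 4251 bp. In the longest bin the bars are 43.2% and 45.3%.

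Groups within the set did differ in count at long spans. All 12 calcium and NALCN channel genes lie in the top 20% of spans, and 8 were listed, or 66.7%, with *nca-1* counted as unlisted although *unc-77* is in the table. In the same range it was 9 of 40 potassium channel genes, or 22.5%, and 4 of 10 release genes, or 40.0%, where the background is 34.5%. These are descriptions of small groups chosen with the table known, and the differences were not tested. Mean counts moved with these counts: listed calcium and NALCN genes had a median mean of 203 normalized counts, listed release genes 124 and listed potassium channel genes 25.7 in the authors' deposited table. The part of expression level in the counts was not tested.

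**Figure D4:**
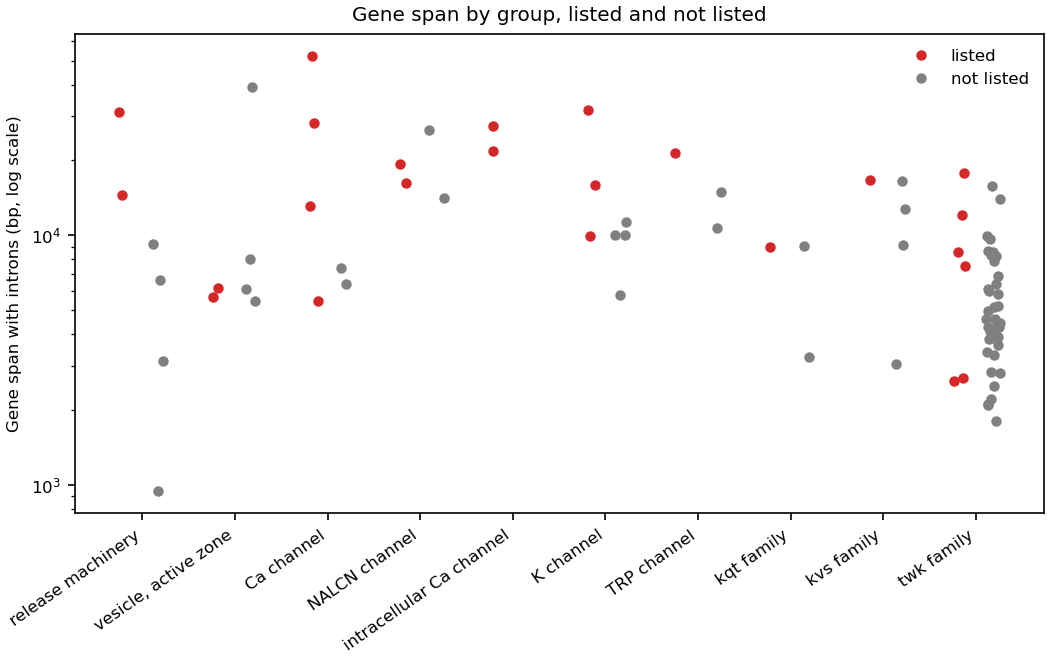
Gene span with introns (vertical, bp, log scale) of the 86 genes by group (horizontal), with listed genes in red on the left and unlisted genes in grey on the right of each group. In the *twk* family the listed genes have a median of 8016 bp and the others 4541 bp, and *cla-1* is the long unlisted gene at 39308 bp.

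Chromosome and isoform number were described as well. On chromosome X lie 6 of the 24 listed genes and 14 of the 62 others, or 22.6%, while 16.8% of listed protein-coding genes do. The listed genes have a median of 4 reference transcripts and the unlisted ones 2. The range of listed folds differs with mean count, so each gene was set against listed genes of the same mean count, in 10 equal bins. Above the median fold of their bin lay 12 of the 24. The highest places were those of *egl-19* (percentile 89.0), *unc-68* (83.9), *unc-2* (80.6) and *unc-31* (80.2).

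In related lists outside the set, listed genes were also longer, with a median span of 8532 bp for the 51 listed genes of 8 lists and 4538 bp for the others. Of 33 other genes of release and the vesicle cycle, 23 were listed, or 69.7%. In the top 20% of spans it was 21 of 28, or 75.0%, against the 34.5% of reference genes. The highest test scores were those of *unc-26* (synaptojanin, which uncoats endocytosed vesicles) at 2.28 ± 0.11, *rpm-1* (a presynaptic ubiquitin ligase) at 3.25 ± 0.16 and *unc-73* (a Trio-type exchange factor) at 2.33 ± 0.13 (log2 fold ± SE from the authors' deposited table). Many genes of that list act in all tissues, and their median mean was 307 normalized counts in the authors' deposited table.

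Of 17 cation pumps and exchangers 8 were listed, and the highest test scores were those of *mca-3* (a plasma membrane calcium pump) at 2.34 ± 0.12, *sca-1* (the SERCA pump that refills calcium stores) at 1.64 ± 0.10 and *mca-1* at 2.15 ± 0.16 (log2 fold ± SE from the authors' deposited table). Of 47 other cation channel genes 8 were listed, among them *pezo-1* (Piezo) at 1.38 ± 0.17, *unc-105* (a muscle channel of the DEG/ENaC type) at 1.32 ± 0.18 and *tmc-1* at 1.91 ± 0.31 (log2 fold ± SE from the authors' deposited table). Of 6 CLC chloride channel genes 3 were listed, *clh-5* at 1.20 ± 0.13, *clh-3* at 1.16 ± 0.19 and *clh-2* at 1.97 ± 0.36 (log2 fold ± SE from the authors' deposited table). Within the top 20% of spans, 6 of 10 pump and exchanger genes were listed, or 60.0%. The same range held 8 listed of 34 other cation channel genes, or 23.5%, and 2 listed of 4 CLC genes, or 50.0%. Among reference genes of that range 34.5% are listed, and the differences were not tested.

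Genes for transmitters, their receptors, gap junctions and dense core vesicles were listed in small numbers. For transmitter receptors it was 4 of 41, or 9.76%, including the nicotinic receptor gene *unc-63* at 3.58 ± 0.44, the metabotropic glutamate receptor gene *mgl-2* at 3.10 ± 0.69 and the GABA-B receptor gene *gbb-1* at 1.03 ± 0.28 (log2 fold ± SE from the authors' deposited table). For transmitter synthesis and transport, a list that also holds acetylcholine breakdown, it was 2 of 21, or 9.52%. These were the acetylcholinesterase gene *ace-2* at 2.62 ± 0.42 and the choline transporter gene *cho-1* at 1.38 ± 0.40 (log2 fold ± SE from the authors' deposited table). For gap junctions it was 2 of 26, or 7.69%, *inx-1* at 1.57 ± 0.42 and *unc-7* at 2.32 ± 0.69 (log2 fold ± SE from the authors' deposited table). For dense core vesicles it was 1 of 9, or 11.1%, *hid-1* at 1.33 ± 0.29 (log2 fold ± SE from the authors' deposited table). All 4 shares are near the 10.6% of all protein-coding genes, but in the top 20% of spans they lie below the 34.5% of reference genes. There it was 4 of 26 receptor genes and 2 of 13 genes of synthesis and transport (15.4% each), 2 of 10 gap junction genes and 1 of 5 dense core vesicle genes (20% each). These differences were not tested.

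**Figure D5:**
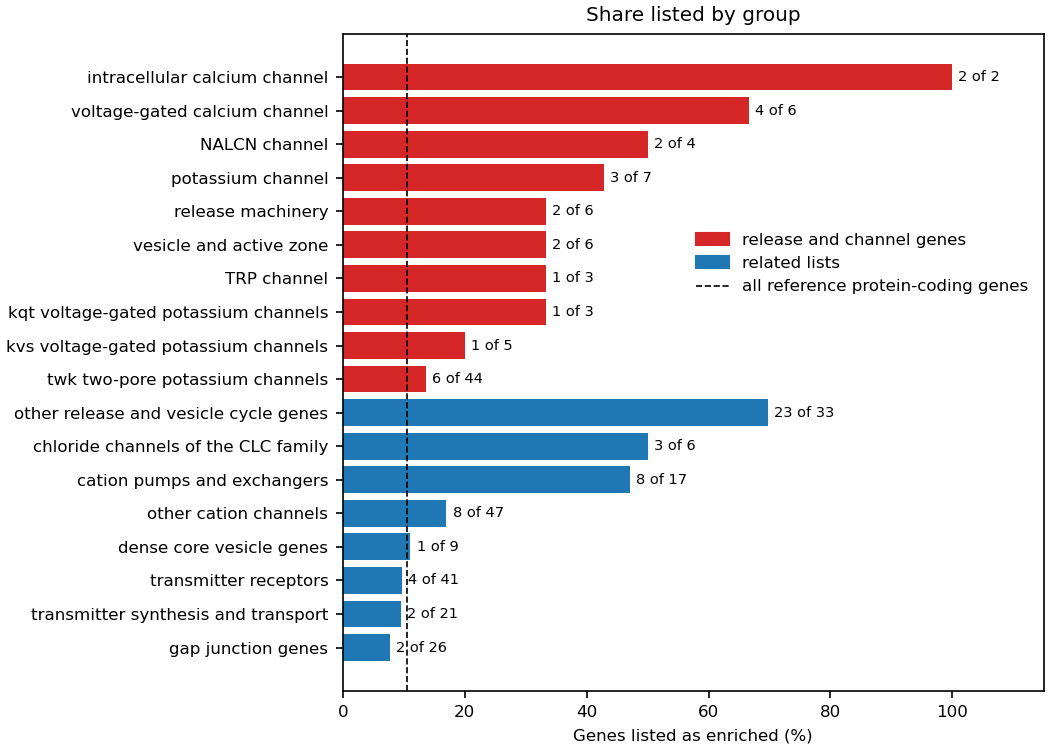
Share of genes listed (horizontal, percent) for each group of the release and channel genes (red) and for related lists (blue), with the number listed beside each bar. The dashed line is the 10.6% of all reference protein-coding genes. Bars of groups with few genes, such as 2 of 2, carry little weight.

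Markers of the tissues in the extract were listed unevenly, and their spans differ as well. Listed were 2 of 7 neuron markers (*rgef-1* and *unc-31*), 4 of 5 of body wall muscle, 2 of 3 of pharyngeal muscle, 4 of 5 of the germline, 2 of 5 of the intestine and none of the 5 of the hypodermis or the 4 of the somatic gonad. Of all protein-coding genes 10.6% are listed. The neuron markers *rab-3*, *snb-1*, *rgef-1* and *unc-31* are also among the 86 genes of the set, so the neuron count partly repeats theirs. The median span was 1326 bp for the hypodermis markers, 3059 bp for those of the germline and 4485 bp for the intestine. It was 5648 bp for the neuron markers, 6529 bp for the somatic gonad, 7288 bp for pharyngeal muscle and 7528 bp for body wall muscle. The part of span in these counts was not tested. Muscle markers had means of 1236 to 40413 in the authors' deposited table, against 10.5 and 50.2 for the neuron markers (normalized counts). The 6 listed muscle markers ran from 1.17 (*unc-15*) to 5.03 (*unc-22*) (log2 fold from the authors' deposited table). All 24 release and channel genes, from 1.17 (*ccb-1*) to 3.92 (*twk-39*) in log2 there, lie within that range. So *egl-19* at 3.49 and *unc-68* at 2.85, which act in muscle, are not set apart by it. The muscle markers *hlh-1* and *tnc-2* are not listed. The tissue from which the RNA of any of the 24 genes came was not tested.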

How the data were processed

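RNA from FLAG immunoprecipitates and inputs of whole young adult worms was sequenced by the authors, and 1 processed table of their comparison was used. The submitters' processing notes list DESeq2 1.12.3, STAR 2.5.2b-0, Bowtie2 2.3.0 and Trim Galore, with builds ce11 and WBcel235, and give no roles. Per the file headers the deposited columns are a signal (the normalized count averaged over libraries), a log2 fold change and its SE, a score, and p-values before and after adjustment. The deposited score equals the log2 fold change over its SE, and the deposited p-value is its upper normal tail, to a relative tolerance of 1e-06. No library depth could be computed.

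The members and gene lists were chosen with earlier results of these data known. The number of tested genes, 20328, was recovered from the deposited adjusted p-values, with 96.2% of implied ranks whole to a tolerance of 0.0001. Fold changes were tested against 2-fold over the whole table by a one-sided Wald test with Benjamini-Hochberg adjustment over the 20328. Genes left out of the table cannot pass at 0.01, since their p exceeds that of every gene called. The procedure was run on simulated normal estimates with known SEs, which checks the computation and cannot show whether the authors' SEs hold. Names were matched to the 46926 genes of the RefSeq WBcel235 annotation (2493 by symbol, 167 by locus tag, 72 unmatched). Of the 86 genes all matched, *nca-1* as *unc-77*. Every listed member is named, and of each related list the 3 genes with the highest score. Python 3.11.15, pandas 2.3.3, NumPy 2.4.6, SciPy 1.17.1 and matplotlib 3.10.9 were used. Gene spans include introns. Sequences were not used here.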

Additional observations from a re-analysis of the deposited data

How the results depend on the processing

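Of the 24 listed genes, the authors' deposited table gives 21 an adjusted p below 0.001, 10 have a mean of at least 100 normalized counts and 13 also pass the test against 2-fold. The minimum mean leaves 1676 of the 2732 listed genes. With *unc-77* counted as *nca-1* there are 25. The 13 genes past the test against 2-fold became 14, with *gon-2*, when p-values were adjusted over the listed genes only (adjusted p = 0.00336 for *gon-2*) or when the threshold was 0.05. Under these settings 1744 and 1646 of all listed genes passed, in place of 1350. The first setting leaves out tested genes outside the table, so it is more lenient than adjustment over all tested genes. Under a minimum mean of 100, 8 of the 10 remaining genes passed, beside 902 of 1676 listed genes. With standard errors 1.5 times as large, an alternative chosen after seeing the data, 7 passed, and 709 of all listed genes in place of 1350. The median log2 fold change of the listed genes of the set stayed at 2.10 with that minimum mean and without the *twk*, *kvs* and *kqt* families. The mean weighted by 1 over the squared SE was 2.09. For all listed genes of the table the median was 2.13, or 1.75 with that minimum mean, and the weighted mean was 1.84. The share of reference genes listed in the span bin of the listed genes' median was 45.3% with 10 bins and 53.6% with 20. Protein length was not run in place of gene span, as no protein table was used. No paired analysis was possible because the table holds no values per library, and for the same reason no replicate could be left out. Library depth is unknown, and 14 of the 24 listed genes, among them all 11 listed potassium channel genes, rest on means under 100 normalized counts.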
